A study of Mus musculus with 2 samples.

Results

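The CXC chemokines of skin fibroblasts and of the interferon response, with their receptors, were followed through 2 single-cell RNA libraries of whole back skin. The 10 genes were the ligands Cxcl9, Cxcl10, Cxcl12, Cxcl13, Cxcl14 and Cxcl16 and the receptors Cxcr3, Cxcr4, Cxcr5 and Cxcr6, taken by symbol. All 10 were among the 31053 features of the count tables. One library came from a Card14KI mouse, labelled Card14 KI +/+, and one from a wild-type (WT) mouse. Both animals were C57BL/6 and 12 months old, their skin was digested for 73 min, and dead cells were removed before capture. The knock-in allele is carried in every cell of the animal, and the sources used here do not name its base change. CARD14 is a scaffold protein of keratinocytes that links receptors at the cell surface to NF-kB. With 1 mouse per genotype no difference below has a replicate check, and mouse, library and genotype cannot be told apart.

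CXC chemokines are small secreted proteins that steer leukocytes through receptors of the CXCR family. Interferon gamma induces CXCL9 and CXCL10, which attract activated T cells through CXCR3. CXCL12 is made by stromal cells and holds or draws CXCR4-bearing cells, and the decoy receptor ACKR3 takes it up. CXCL13 draws B cells and follicular helper T cells through CXCR5 and is known from lymphoid stroma and from resident macrophages of body cavities. CXCL14 is abundant in resting epithelium and dermis, and its receptor is less settled. CXCL16 is made as a membrane protein that ADAM10 and ADAM17 can shed, and it binds CXCR6 on tissue-resident lymphocytes.

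The 250 bases before the start site, from RefSeq promoter windows of GRCm38.p6, are shown for the 4 ligands that differed most in summed counts between the fibroblasts of the libraries, Cxcl10 and Cxcl13, higher in Card14KI, and Cxcl12 and Cxcl14, lower. A RefSeq window was matched by symbol for 8 of the 10 genes, all but Cxcl16 and Cxcr5. Each is written 5′ to 3′ on the strand of its gene. Capitals mark matches on either strand to 3 motifs, the gamma-activated site GAS (TTCNNNGAA), the interferon-stimulated element ISRE (GAAA, any 2 bases, GAAA) and the NF-kB site (GGGA, any 2 bases, T, any base, CC).
Cxcl10, chr5:92348890-92349139, minus strand: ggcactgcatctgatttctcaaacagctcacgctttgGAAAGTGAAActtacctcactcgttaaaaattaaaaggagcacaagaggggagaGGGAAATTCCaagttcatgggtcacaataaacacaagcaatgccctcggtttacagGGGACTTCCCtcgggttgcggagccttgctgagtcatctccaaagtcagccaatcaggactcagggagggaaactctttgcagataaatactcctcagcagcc
Cxcl13, chr5:95956689-95956938, plus strand: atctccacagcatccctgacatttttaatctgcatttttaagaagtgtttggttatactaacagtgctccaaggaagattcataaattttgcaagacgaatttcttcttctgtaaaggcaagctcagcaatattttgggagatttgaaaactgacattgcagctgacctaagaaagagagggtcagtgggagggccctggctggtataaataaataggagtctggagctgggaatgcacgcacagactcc
Cxcl12, chr6:117168285-117168534, plus strand: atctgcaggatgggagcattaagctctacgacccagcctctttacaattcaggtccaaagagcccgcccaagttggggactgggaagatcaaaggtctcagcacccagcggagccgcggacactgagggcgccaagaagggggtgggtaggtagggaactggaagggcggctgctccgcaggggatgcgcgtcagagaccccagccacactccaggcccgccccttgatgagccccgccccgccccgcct
Cxcl14, chr13:56296552-56296801, minus strand: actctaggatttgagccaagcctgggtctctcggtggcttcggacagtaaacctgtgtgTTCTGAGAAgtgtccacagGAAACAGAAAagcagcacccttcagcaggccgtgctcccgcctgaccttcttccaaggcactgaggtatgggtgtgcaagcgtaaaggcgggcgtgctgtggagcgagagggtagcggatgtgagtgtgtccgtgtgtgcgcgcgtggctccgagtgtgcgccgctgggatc

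The Cxcl10 window held 1 ISRE match, starting 213 bases before the start site, and 2 NF-kB matches, at 159 and 103 bases. The Cxcl14 window held 1 GAS match at 191 bases and 1 ISRE match at 172 bases. None of these letters was found in the windows of Cxcl9, Cxcl12, Cxcl13, Cxcr3, Cxcr4 and Cxcr6. Over 32851 RefSeq windows of the same length, 7.02% held a GAS match, 2.98% an ISRE match and 3.33% an NF-kB match. The Cxcl10 and Cxcl14 matches do not overlap one another, and they describe the letters of these windows only.

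On GRCm38, by the GENCODE vM21 annotation, 3 of the ligand genes lie on chromosome 5. Cxcl9 (92321347 to 92328079) and Cxcl10 (92346638 to 92348889) are neighbours on its minus strand, and Cxcl13 (95956951 to 95961068) is on its plus strand. Cxcl12 is on chromosome 6 (117168535 to 117181367), Cxcl14 on chromosome 13 (56288643 to 56296551) and Cxcl16 on chromosome 11 (70453983 to 70459984). Of the receptor genes, Cxcr4 is on chromosome 1 (128588199 to 128592293), Cxcr5 (44511787 to 44561877) and Cxcr6 (123806475 to 123811760) on chromosome 9, and Cxcr3 on the X chromosome (101731535 to 101734269). Genes on the opposite strand overlap 4 of them, Art3 with Cxcl10, Zmynd15 with Cxcl16, Bcl9l with Cxcr5 and Fyco1 with Cxcr6. No source used here states the strand setting of the counting, so reads from those partners cannot be told apart from reads of these 4 genes.

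After filtering, the Card14KI library held 2835 cells with 38365728 UMIs (unique transcript molecules) and a median of 6875 per cell, and the WT library 4161 cells with 51040861 UMIs and a median of 7344. Each cell was put into a class by a score over marker genes, and 258 of 6996 cells passed no gate. Another 386 cells lay within 0.05 of the lead that a class needed over the next. Fibroblasts were 1354 Card14KI and 2135 WT cells, and their 7 markers (Pdgfra, Col1a1, Col1a2, Col3a1, Dcn, Lum, Fbn1) summed to 26797 CPM in Card14KI and 43068 CPM in WT. CPM are UMIs per 1000000 UMIs of the class, and the matrix genes that define the class were thus themselves lower in Card14KI. Hair follicle and inner root sheath keratinocytes numbered 9 and 1 cells in Card14KI against 90 and 178 in WT, and were not compared. The libraries shared 2 barcodes, both among the kept cells. Card14 itself was at 52.1 CPM (47.5 to 57.0) in Card14KI suprabasal keratinocytes and at 54.5 CPM (48.8 to 60.7) in WT, which checks no label, since a knock-in can leave the level as it is. Brackets hold 95% intervals, exact for levels, ratios and shares, which cover counting error and not the spread between animals.

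Fibroblasts held most UMIs of Cxcl10, Cxcl12 and Cxcl13 in both libraries, and keratinocytes most of Cxcl16. Of all UMIs in kept cells, fibroblasts held 87.3% of Cxcl12 in Card14KI and 91.0% in WT, and 87.0% of Cxcl10 in Card14KI and 71.9% in WT. For Cxcl13 the fibroblast share was 97.9% in Card14KI against 74.2% in WT, where macrophages held another 25.0%. Cxcl14 was split between basal keratinocytes, with 70.7% in Card14KI and 46.9% in WT, and fibroblasts, with 24.4% and 44.6%. Cxcl16 lay mainly in basal and suprabasal keratinocytes, which together held 87.1% in Card14KI and 57.4% in WT. Cxcl9 amounted to 167 UMIs in 61 Card14KI cells and 308 UMIs in 100 WT cells. Of the receptors, Cxcr6 sat in T cells and innate lymphoid cells (90.2% in Card14KI, 64.4% in WT) and Cxcr4 was spread over all leukocyte classes. Cxcr3 and Cxcr5 amounted to 20 and 5 UMIs in Card14KI and to 48 and 19 in WT.

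**Figure D1:**
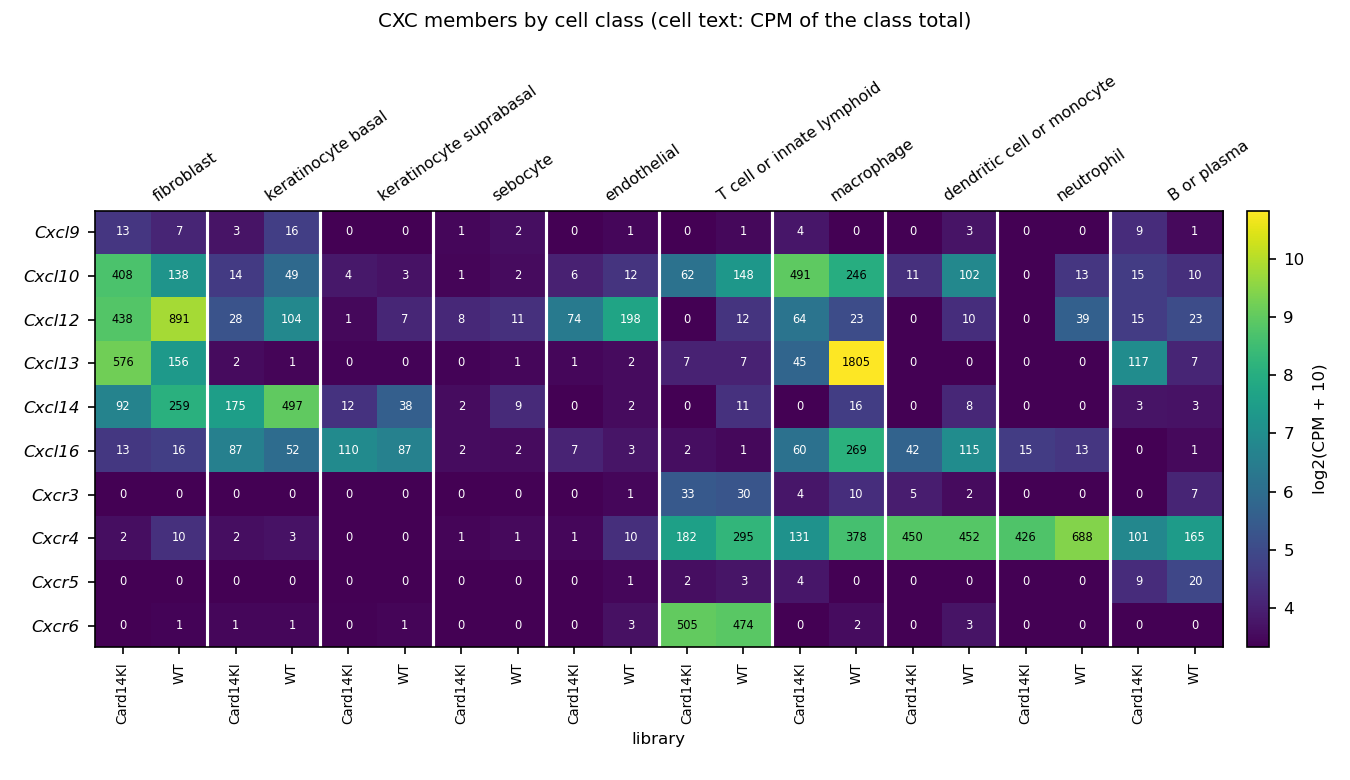
Level of each gene (down the page) in 10 cell classes of the Card14KI and the WT library (across, Card14KI left of WT in each pair), as CPM of the class total in the cell text and as log2(CPM + 10) in the colour. Fibroblast Cxcl13 stood at 576 CPM in Card14KI and 156 CPM in WT, while macrophage Cxcl13 stood at 45.0 CPM in Card14KI and 1805 CPM in WT.

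Fibroblasts differed between the libraries in 6 of the 7 genes that reached 20 UMIs there, by a ratio of 1.5 or more. Cxcl9, Cxcl10 and Cxcl13 were higher in Card14KI, Cxcl12, Cxcl14 and Cxcr4 were lower, and Cxcl16 stayed inside 1.5-fold. By the same rule 24.3% of 13356 genes differed in fibroblasts, 7.17% higher and 17.2% lower in Card14KI. The median log2 ratio of the 7 genes was -0.18, on the log2(CPM + 10) scale, against -0.09 for all genes tested, since ligands that were higher and ligands that were lower stood side by side.

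Cxcl12, the stromal ligand of CXCR4, had 3597 UMIs (438 CPM, 424 to 453) in Card14KI fibroblasts and 15871 UMIs (891 CPM, 878 to 905) in WT fibroblasts. The ratio of Card14KI to WT was 0.492 (0.474 to 0.510). A UMI was found in 784 of 1354 Card14KI cells (57.9%) and in 1500 of 2135 WT cells (70.3%), so most fibroblasts of either library carried the gene. With each cell thinned to 2000 UMIs, which left out 103 Card14KI and 140 WT fibroblasts, the shares were 42.8% and 52.0%, a difference of -9.13 points (-12.6 to -5.61). In suprabasal keratinocytes, which should lack the gene, 9 of 450 Card14KI cells and 9.19% of WT cells had a UMI, at median depths of 15315 and 17576 UMIs, against 5583.5 and 7219 UMIs in fibroblasts. Among positive fibroblasts the median was 5.60 UMIs per 10000 in Card14KI and 7.62 in WT, and the 90th percentile was 22.9 and 36.3. Taken over all fibroblasts, both the share of cells and the amount per positive cell were thus lower in Card14KI. By the subsets defined below, the thinned difference was -17.0 points (-27.6 to -5.99) in complement-rich cells. Intervals took in 0 in Pi16 (1.03, -4.98 to 6.93), Myoc (-8.72, -18.0 to 0.62) and collagen-rich cells (-6.00, -16.4 to 4.31). They also did in contractile (6.54, -8.98 to 22.5) and dermal papilla-like cells (-3.27, -13.5 to 17.5).

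Cxcl14, the chemokine of resting skin, had 755 UMIs (92.0 CPM, 85.5 to 98.8) in Card14KI fibroblasts and 4617 UMIs (259 CPM, 252 to 267) in WT fibroblasts, a ratio of 0.355 (0.328 to 0.383). Positive cells were 189 of 1354 in Card14KI and 671 of 2135 in WT (31.4%), or 7.83% and 17.8% after thinning. The median among positive cells was 3.53 UMIs per 10000 in Card14KI and 3.70 in WT, and the 90th percentile was 19.4 and 22.5. A lower amount per cell also leaves more cells without a UMI. The share of cells with Cxcl14 and the amount in each thus cannot be told apart here. In sebocytes, a class with little Cxcl14, 4.02% of Card14KI and 10.0% of WT cells had a UMI at median depths of 22701 and 25170.5 UMIs.

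Cxcl13, the ligand of CXCR5, went the other way, with 4729 UMIs (576 CPM, 560 to 593) in Card14KI fibroblasts and 2770 UMIs (156 CPM, 150 to 161) in WT fibroblasts. The ratio was 3.70 (3.53 to 3.88). It was found in 435 Card14KI cells (32.1%) and 405 WT cells (19.0%), and in 26.5% and 12.8% after thinning, a difference of 13.7 points (10.9 to 16.6). Suprabasal keratinocytes had a UMI in 0.889% of Card14KI and 1.06% of WT cells. The median positive fibroblast held 8.82 UMIs per 10000 in Card14KI and 3.78 in WT. The single cell richest in Cxcl13 held 128 of the 4729 UMIs in Card14KI and 108 of the 2770 in WT, so no one cell set either level.

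Cxcl10, an interferon-induced ligand of CXCR3, had 3346 UMIs (408 CPM, 394 to 422) in Card14KI fibroblasts and 2460 UMIs (138 CPM, 133 to 144) in WT fibroblasts, a ratio of 2.95 (2.80 to 3.11). Its positive cells were 553 in Card14KI (40.8%) and 551 in WT (25.8%), or 27.7% and 15.1% after thinning. In suprabasal keratinocytes the shares were 5.33% and 2.83%. Cxcl9, its neighbour on chromosome 5 and a ligand of the same receptor, had 105 UMIs in 45 Card14KI fibroblasts and 124 UMIs in 62 WT fibroblasts. The Cxcl9 levels of 12.8 CPM in Card14KI and 6.96 CPM in WT gave a ratio of 1.84 (1.40 to 2.40). The share of fibroblasts with a Cxcl9 UMI was 3.32% and 2.90%, a difference of 0.42 points (-0.73 to 1.68), so the share did not differ detectably at this depth. One Card14KI fibroblast held 19 of the 105 Cxcl9 UMIs.

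Cxcl16, the membrane-bound ligand of CXCR6, was at 13.0 CPM in Card14KI fibroblasts against 16.1 CPM in WT fibroblasts, and the interval of the ratio (0.644 to 1.02) took in equality. Cxcr4 had 18 UMIs in 9 Card14KI fibroblasts and 185 UMIs in 79 WT fibroblasts, a ratio of 0.211 (0.122 to 0.343). The other receptors were at or near 0 in fibroblasts. Cxcr3 was at 0 in both libraries, Cxcr5 at 0 in Card14KI and 1 UMI in WT, and Cxcr6 at 0 in Card14KI and 10 UMIs in 6 WT cells. A count of 0 in the 1354 Card14KI fibroblasts allows a share with a UMI of up to 0.222%, taking 3 counts as the limit.

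The fibroblasts were then divided into subsets by markers, with a subset needing a lead of 0.25 in mean marker z score. Of the Card14KI fibroblasts 28.1% were in the Pi16 subset (Pi16, Dpp4, Cd55, Sema3c, Anxa3) and 7.90% in the collagen-rich subset (Col1a1, Col1a2, Col3a1, Sparc, Postn), against 15.7% and 26.4% of the WT fibroblasts. The Myoc subset (Myoc, Gpx3, Apod, Itm2a) was 15.9% in Card14KI and 13.3% in WT, and the complement-rich subset (markers including C3, C4b, C1s1 and C1ra) was 10.4% and 7.07%. The contractile subset (Lrrc15, Mmp11, Acta2, Tagln, Itga8) was 3.77% in Card14KI and 8.95% in WT, and the dermal papilla-like subset (markers including Corin, Rspo3, Crabp1 and Wif1) 1.55% and 3.75%. The subsets of the papilla and of the collagens come with small Card14KI numbers, 21 and 107 cells. Another 32.3% of Card14KI and 24.7% of WT fibroblasts passed no subset gate, and 633 of 3489 fibroblasts lay within 0.1 of the lead that was needed. Collagen genes were lower in Card14KI fibroblasts as a whole, so a gate on collagens can move cells out of that subset, and subset sizes are given here only as the weights behind the levels.

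In the Pi16 subset, cells known from adventitia and fascia, Cxcl13 was at 772 CPM in 381 Card14KI cells and 403 CPM in 336 WT cells. Cxcl10 was at 407 and 259 CPM there. After thinning, 44.5% of Card14KI and 38.7% of WT Pi16 cells had a Cxcl13 UMI. The interval of that difference, 5.83 points (-1.50 to 13.1), took in 0. For Cxcl10 the thinned Pi16 shares were 35.2% and 28.2%, a difference of 7.03 points (0.09 to 13.8). The same subset held little Cxcl12, at 143 CPM in Card14KI and 208 CPM in WT, and almost no Cxcl14, at 3.84 and 17.6 CPM. Barcodes removed by the cell filter had Cxcl14 at 28.6 CPM in Card14KI and 111 CPM in WT. The Pi16 levels of Cxcl14 lay below these, so their difference is not read as expression. In the Myoc subset Cxcl14 was at 345 CPM in Card14KI and 778 CPM in WT, and Cxcl12 at 629 and 835 CPM. Its Cxcl13 was at 257 CPM in Card14KI (271 UMIs in 24 of 215 cells) and 14.2 CPM in WT (25 UMIs in 10 of 285 cells). In both libraries, then, Pi16 cells held Cxcl13 with little Cxcl14, and Myoc cells held Cxcl14 together with Cxcl12.

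The complement-rich subset carried all of the main ligands. Its Cxcl10 was at 889 CPM (823 to 959) in Card14KI and 253 CPM (223 to 287) in WT, and its Cxcl13 at 1071 and 556 CPM. Its Cxcl12 was at 754 CPM in Card14KI and 1572 CPM in WT, and its Cxcl14 at 209 and 891 CPM. The 4 ratios in this gate had intervals clear of 1. Its cells came from different clusters in the libraries, with 55 of 141 Card14KI and 107 of 151 WT cells in a cluster with Apod, Myoc and Gpx3 among its leading genes, and the part of this mix in the ratios was not tested. The collagen-rich subset, which makes most of the dermal collagen, was the other main source of Cxcl12, at 1056 CPM in Card14KI and 1402 CPM in WT. Unlike the Pi16, Myoc and complement-rich subsets, it had less Cxcl13 in Card14KI, at 13.9 CPM (8 UMIs in 3 of 107 cells) against 142 CPM (666 UMIs in 77 of 564 cells) in WT. Contractile cells had Cxcl12 at 363 CPM in Card14KI and 370.2 CPM in WT, with an interval of the ratio from 0.765 to 1.24. In this gate 25 of the 51 Card14KI cells, against 172 of the 191 WT cells, lay in the cluster led by Mmp11, so the gate held different cells in the libraries. Cxcr4 was found in 1 of the 51 Card14KI and 22 of the 191 WT contractile cells. Dermal papilla-like cells, the signalling centre of the hair follicle, had Cxcr4 at 26.3 CPM (14 UMIs in 7 cells) in Card14KI and 68.6 CPM (106 UMIs in 27 cells) in WT. Their median depth was 32145 UMIs in Card14KI and 6214 UMIs in WT, and the 7 fibroblast markers summed to 2701 CPM and 7337 CPM there; the part of either in the Cxcr4 difference was not tested.

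**Figure D2:**
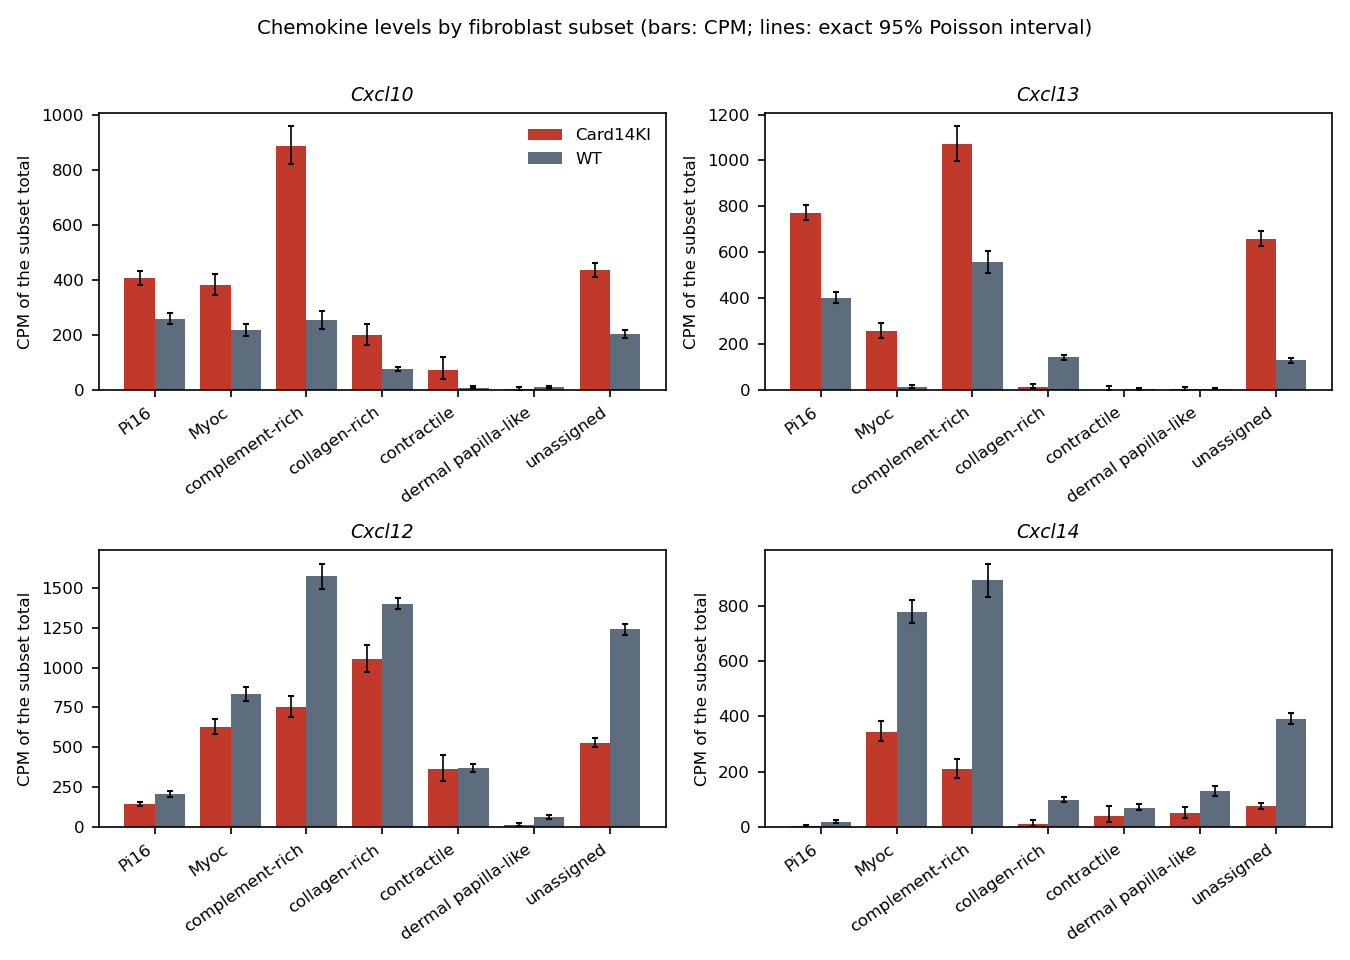
Level (CPM of the subset total) of Cxcl10, Cxcl13, Cxcl12 and Cxcl14 in fibroblast subsets of the Card14KI (left bar, red) and WT library (right bar, grey), with exact 95% Poisson intervals as lines. Cxcl10 was higher in Card14KI in the Pi16, Myoc, complement-rich, collagen-rich, contractile and unassigned cells. Cxcl14 was lower in Card14KI in the same subsets other than contractile cells, where the interval of the ratio reached 1. The Pi16 Cxcl14 levels lay below those of barcodes removed by the cell filter and are not read as expression.

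Across the 6 named subsets, the members past 1.5-fold either way were 4 of 6 measured in Pi16 cells, where 18.1% of all genes passed (6.2% higher and 11.9% lower in Card14KI), and 5 of 6 in Myoc cells, where 21.7% passed. They were 4 of 6 in complement-rich cells (26.8% of all genes), 5 of 6 in collagen-rich cells (29.4%), 3 of 5 in contractile cells (47.7%) and 3 of 3 in dermal papilla-like cells (32.1%). The 4 in Pi16 cells include Cxcl14, whose levels there lay below those of the removed barcodes. The Cxcl9 ratio in collagen-rich cells rested on a single Card14KI cell with 19 of 23 UMIs, and without the richest cell of each library its log2 ratio was -0.15 in place of 1.31. When every subset was given the same weight in both libraries, a choice made after seeing the data, the log2 ratios in fibroblasts were 1.17 for Cxcl13 in place of 1.82, 1.04 for Cxcl10 in place of 1.49 and -0.70 for Cxcl12 in place of -1.01. For Cxcl14 the value was -1.68 in place of -1.40. Directions were thus the same with and without the difference in subset weights, and the size for Cxcl13, Cxcl10 and Cxcl12 was smaller at equal weights.

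Clusters built without the CXC genes gave the same picture at finer grain. A cluster led by Ptgs2, Ptx3, Cxcl1 and Ccl2 held 154 Card14KI and 88 WT cells. Its Cxcl10 was at 886 CPM in Card14KI and 357 CPM in WT, and its Cxcl13 at 1081 and 460.1 CPM. The Cxcl12-richest fibroblast cluster was led by Lpl, Postn and Peg3, with 80 Card14KI and 274 WT cells. There Cxcl12 was at 2268 CPM in Card14KI and 3003 CPM in WT, found in 79 of the 80 and 269 of the 274 cells. In that same cluster Cxcl13 had 4 UMIs in 3 Card14KI cells against 800 UMIs in 96 WT cells, and Cxcl14 had 5 UMIs in Card14KI against 828 UMIs in WT. Cxcl12 was thus found in nearly every cell of this cluster in both libraries, and Cxcl13 and Cxcl14 in many of its WT cells and few of its Card14KI cells.

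A larger share of fibroblasts had Cxcl10 among those with Cxcl13 than among those without it. Of fibroblasts with a Cxcl13 UMI, 66.2% (61.5 to 70.6) in Card14KI and 46.7% (41.7 to 51.7) in WT also had a Cxcl10 UMI. Among those without Cxcl13, the Cxcl10 share was 28.8% in Card14KI and 20.9% in WT. Depth was higher in the Cxcl13-positive cells, at median 7397 against 4793 UMIs in Card14KI and 8236 against 6975.5 UMIs in WT, and its part in these shares was not tested. Within Pi16 cells alone the shares were 62.5% with and 45.2% without Cxcl13 in Card14KI, and 54.3% and 37.8% in WT. Cxcl12 ran the other way, in 42.8% of Cxcl13-positive and 65.1% of Cxcl13-negative Card14KI fibroblasts, and in 59.3% and 72.8% of the WT ones. Pi16 cells, rich in Cxcl13 and poor in Cxcl12, were not set apart for this pair. The part of the subset mix in these Cxcl12 shares was not tested.

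Macrophages, gated by C1qa, C1qb, C1qc, Mrc1, Csf1r, Adgre1 and Pf4, differed in Cxcl13 in the opposite direction to fibroblasts. Cxcl13 had 12 UMIs in 7 of 45 Card14KI macrophages (45.0 CPM, 23.3 to 78.6) and 931 UMIs in 32 of 95 WT macrophages (1805 CPM, 1691 to 1925). The level was 40.1-fold lower in Card14KI, with a ratio of 0.0249 (0.0128 to 0.0438). Positive Card14KI macrophages ran from 1.39 to 4.70 Cxcl13 UMIs per 10000 and positive WT macrophages from 11.1 to 177, so positive cells of the libraries did not overlap. No single cell made the WT level, since the richest held 88 of the 931 UMIs. Nearly all of it sat in the macrophage cluster led by Retnla, C1qa, Pf4 and Cd209f, genes of resident dermal macrophages. That cluster held 27 Card14KI and 34 WT cells, with Cxcl13 at 78.5 CPM in Card14KI (7 cells positive) and 6513 CPM in WT (32 cells positive).

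Markers of other cells were read beside this. The 7 macrophage markers summed to 11519 CPM in Card14KI and 9868 CPM in WT macrophages, with 0 of the 7 at 0 in either. The 7 fibroblast markers summed to 1302 CPM in Card14KI macrophages and 221 CPM in WT macrophages, so the class with less Cxcl13 held more fibroblast RNA. Dendritic cells and monocytes, the nearest class, had 0 Cxcl13 UMIs in 28 Card14KI and 87 WT cells, which allows a share of cells with a UMI of up to 10.7% and 3.45% by the same limit. In fibroblasts the macrophage markers summed to 9.38 CPM in Card14KI and 14.1 CPM in WT.

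**Figure D3:**
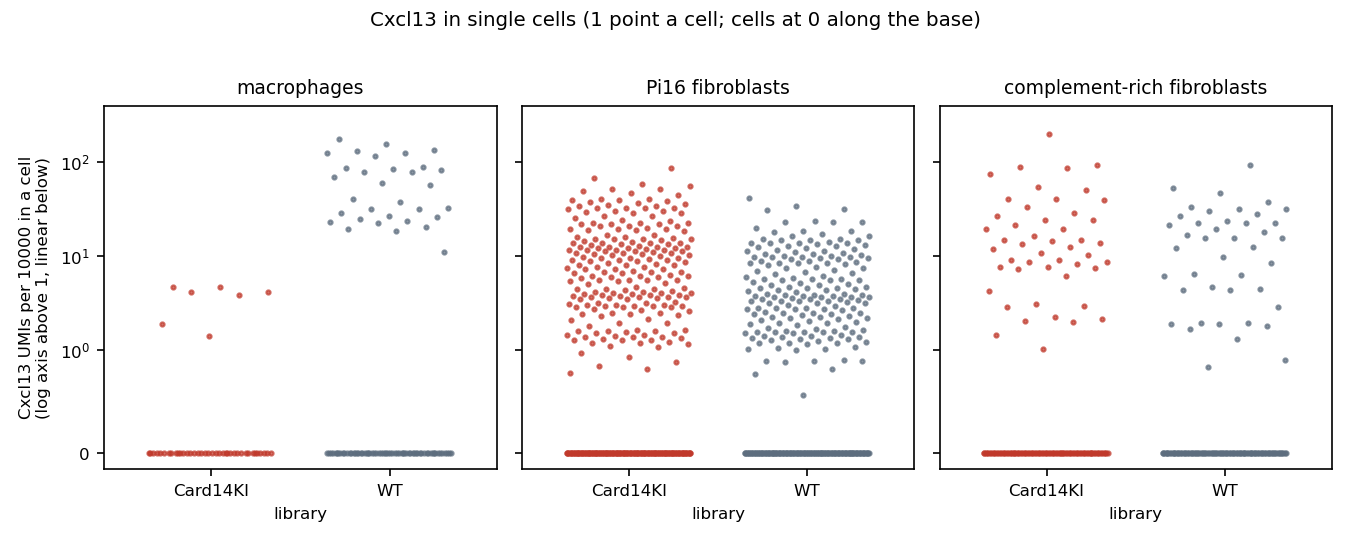
Cxcl13 in single cells (vertical axis, UMIs per 10000 in a cell, linear below 1 and logarithmic above) of macrophages, Pi16 fibroblasts and complement-rich fibroblasts, Card14KI left and WT right, 1 point a cell. The 7 positive Card14KI macrophages lie below the 32 positive WT macrophages, while positive Pi16 and complement-rich fibroblasts reach higher in Card14KI than in WT.

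Cxcl10 in macrophages was at 491 CPM (131 UMIs in 17 cells) in Card14KI and 246 CPM (127 UMIs in 21 cells) in WT, with an interval of the ratio of 1.55 to 2.57. One Card14KI macrophage held 39 of the 131 UMIs, and the thinned shares of positive cells, 23.8% and 21.2%, differed by 2.63 points (-11.6 to 19.1). Cxcl16 was lower in Card14KI macrophages, as Cxcl13 was, at 60.0 CPM in Card14KI and 269 CPM in WT, a ratio of 0.223 (0.124 to 0.375), with a UMI in 11 of 45 and 45 of 95 cells. In all, 5 of the 10 genes reached 20 UMIs in macrophages, and each passed 1.5-fold, against 31.7% of all genes there (13.0% higher and 18.7% lower in Card14KI). Cxcl12 was 1 of the 5, at 63.8 CPM in Card14KI and 23.3 CPM in WT, from 17 and 12 UMIs, with 9 of the 17 in 1 cell. Its log2 ratio of 1.15 was 0.16 with suspected doublets kept, and the part of the fibroblast RNA named above was not tested.

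Dendritic cells and monocytes had Cxcl16 at 42.4 CPM in 28 Card14KI cells and 115 CPM in 87 WT cells, and Cxcl10 as 2 UMIs in Card14KI against 64 UMIs in WT. These were the 2 of 3 measured genes past 1.5-fold, against 34.4% of all genes in that class (10.2% higher, 24.1% lower), and Cxcr4 was the one inside it. Langerhans cells, the dendritic cells of the epidermis, were the richest class in Cxcl16 in both libraries, at 693 CPM (530 to 890) in 12 Card14KI cells and 326 CPM (262 to 402) in 24 WT cells. The direction there was opposite to that of the dermal phagocytes, on few cells.

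Keratinocytes were the epithelial source of Cxcl14 and Cxcl16. In basal keratinocytes Cxcl14 was at 175 CPM in 370 Card14KI cells and 497 CPM in 386 WT cells, a ratio of 0.352 (0.335 to 0.371). The gate mixed cell states unevenly: 8 Card14KI and 135 WT basal cells fell in a Krt75-led hair follicle cluster, where Cxcl14 was at 4328 CPM in Card14KI and 1187 CPM in WT. One of the 8 Card14KI cells there held 478 of all 2189 basal UMIs. Another 50 Card14KI and 43 WT basal cells fell in a cluster led by Cst6, Defb6, Krt79 and Krt17, genes of the upper follicle. Without those clusters, a choice made after seeing the data, Cxcl14 was at 112 CPM in 312 Card14KI cells and 180 CPM in 208 WT cells, a ratio of 0.626. In suprabasal keratinocytes it was at 11.6 CPM in 450 Card14KI cells and 38.0 CPM in 283 WT cells, a ratio of 0.304 (0.239 to 0.385). The barcodes removed by the cell filter had Cxcl14 at 28.6 CPM in Card14KI and 111 CPM in WT, above the suprabasal levels and lower in Card14KI too, so the suprabasal values are not read as expression there.

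Cxcl16 was at 87.1 CPM (82.0 to 92.4) in Card14KI basal keratinocytes and 52.3 CPM (47.8 to 57.0) in WT, a ratio of 1.67 (1.5 to 1.85). Without the follicle-led clusters it was at 77.6 CPM in Card14KI and 40.1 CPM in WT, and the ratio was 1.94 (1.66 to 2.27). The basal cells left were still spread unevenly, with 193 Card14KI and 68 WT cells in a cluster led by Krt15 and Col17a1 and 109 and 128 in a cluster led by Akr1c18 and Lcn2. In suprabasal keratinocytes it was at 109.6 CPM in Card14KI and 87.3 CPM in WT, with a UMI in 55.6% and 54.4% of cells. The suprabasal ratio of 1.26 (1.13 to 1.40) stayed inside 1.5-fold, and the thinned shares, 14.9% and 16.9%, differed by -1.99 points (-7.84 to 3.49). Sebocytes, as a background class, had a Cxcl16 UMI in 5.17% of Card14KI and 2.94% of WT cells. The epidermal Cxcl16 difference thus lay in the basal gate, and the suprabasal log2 ratio of 0.30 over summed counts was 0.0015 as a mean over cells.

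Basal keratinocytes had less Cxcl10 and Cxcl9 in Card14KI, opposite to fibroblasts, with Cxcl10 at 14.4 CPM in Card14KI and 48.6 CPM in WT, and Cxcl9 at 3.28 and 16.3 CPM. Suprabasal keratinocytes had 37 Cxcl10 UMIs in Card14KI (4.12 CPM) and 17 in WT (2.78 CPM), and the interval of the ratio (0.815 to 2.81) took in equality. In basal cells, 1 Card14KI cell held 35 of 41 Cxcl9 UMIs, and 5 WT cells held 135 of 159. Without the follicle-led clusters Cxcl9 was down to 1 UMI in Card14KI and 4 UMIs in WT, so the basal Cxcl9 belonged to the follicle-led clusters, and Cxcl10 was at 14.3 and 25.1 CPM. Cxcl12 in basal keratinocytes was at 27.7 CPM in Card14KI and 104 CPM in WT, and at 12.7 and 45.8 CPM without the follicle-led clusters. The barcodes removed by the cell filter had Cxcl12 at 6.72 CPM in Card14KI and 132 CPM in WT. The part of such RNA in the basal levels was not tested. For every 100 fibroblast marker UMIs basal keratinocytes held 31.6 of Cxcl12 in Card14KI and 39.6 in WT, against 1.64 and 2.07 in fibroblasts. In suprabasal keratinocytes the same ratio was 4.12 in Card14KI, on 11 Cxcl12 UMIs, and 2.32 in WT. Cxcl12 was at 1.22 and 7.35 CPM there. In basal keratinocytes 6 of 8 measured genes passed 1.5-fold (29.2% of all genes, 7.9% higher and 21.3% lower in Card14KI), and in suprabasal keratinocytes 2 of 4 (17.3%, with 9.85% higher and 7.5% lower). The 2 suprabasal genes were Cxcl12 and Cxcl14, both at levels below those of the removed barcodes.

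Vessels and glands carried less. Blood endothelial cells had Cxcl12 at 61.8 CPM in 39 Card14KI cells and 561 CPM in 19 WT cells, but 5 WT cells held 160 of the 172 UMIs. Lymphatic endothelial cells had it at 92.7 CPM in 34 Card14KI cells and 69.4 CPM in 72 WT cells, and the interval of the ratio (0.875 to 2.02) took in equality. Over all endothelial cells 2 of 2 measured genes, Cxcl10 and Cxcl12, passed 1.5-fold as lower in Card14KI, against 27.1% of all genes (7.32% higher, 19.8% lower), though the Cxcl10 ratio of 0.507 (0.173 to 1.34) rested on 7 and 14 UMIs. Sebocytes held each of the 10 genes below 11 CPM, and 1 of 2 measured genes, Cxcl14, passed (14.0% of all genes, 7.0% higher and 7.03% lower). In the B or plasma class 38 Cxcl13 UMIs in Card14KI came from 2 cells, 37 of them from 1 cell, against 5 UMIs from 1 WT cell.

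**Figure D4:**
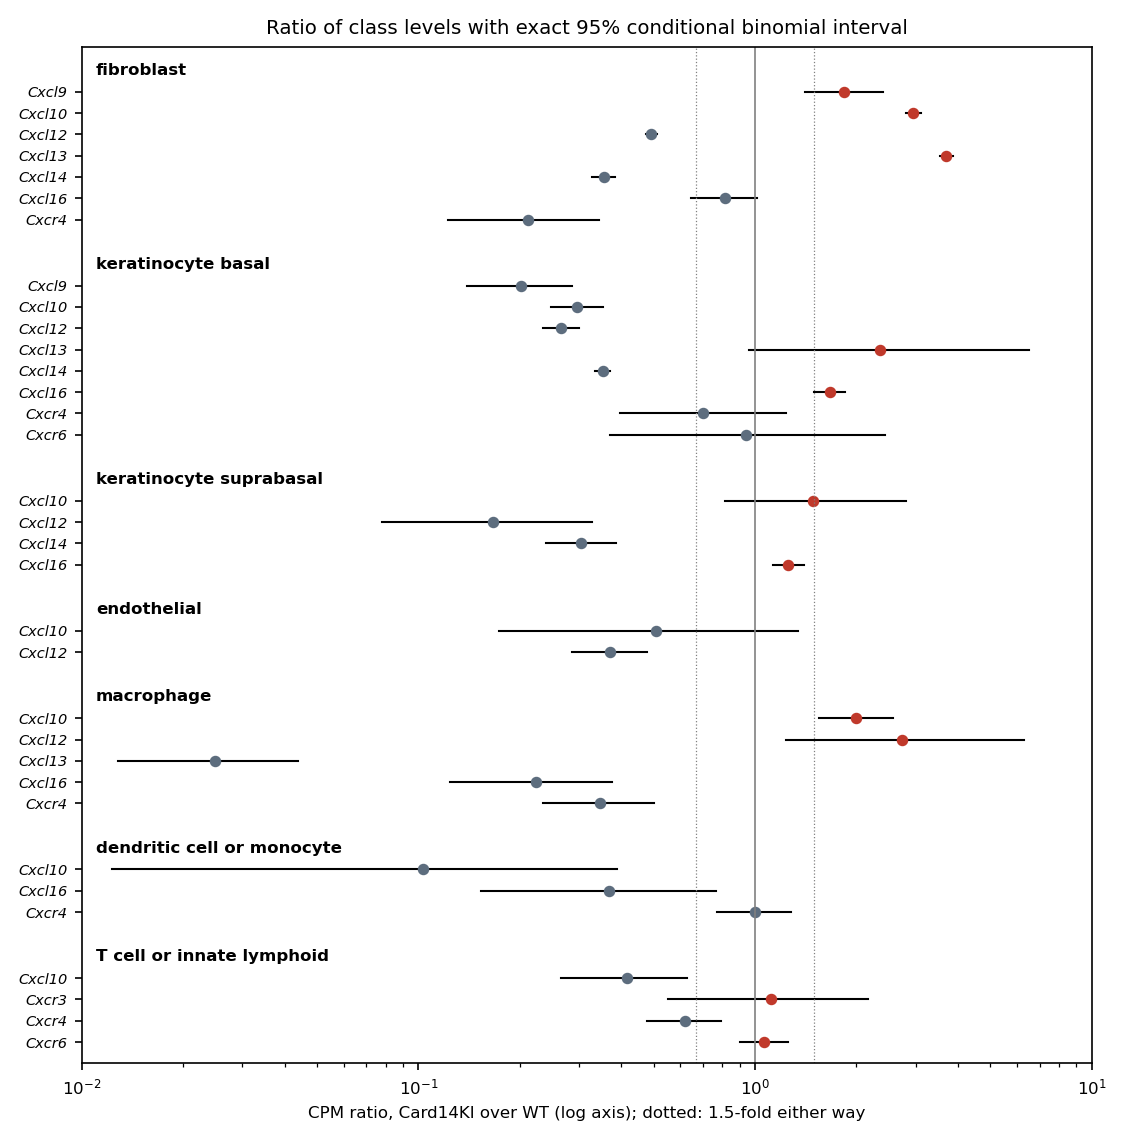
Ratio of CPM, Card14KI over WT (horizontal axis, logarithmic), for each gene with 20 or more UMIs in a class and at least 1 in each library, with exact 95% intervals as lines, red where higher and grey where lower in Card14KI. Cxcl13 stands at 3.70 in fibroblasts and 0.0249 in macrophages, and Cxcl14 at 0.355 in fibroblasts. The suprabasal Cxcl14 ratio of 0.304 and the suprabasal Cxcl12 ratio are shown but not read as expression, since their levels lay below those of the removed barcodes.

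The receptors were read in leukocytes, 125 T cells and innate lymphoid cells in Card14KI and 267 in WT. Cxcr6, the receptor of CXCL16 on resident lymphocytes, had 230 UMIs (505 CPM, 442 to 575) in 62 Card14KI cells and 432 UMIs (474 CPM, 431 to 521) in 147 WT cells. The ratio was 1.07 (0.904 to 1.25), and 49.6% of Card14KI and 55.1% of WT cells were positive, 43.9% and 48.3% after thinning. The levels of Cxcr6 per lymphocyte UMI thus lay within counting error of each other. Fibroblasts, as background, had it in 0 of 1354 Card14KI and 6 of 2135 WT cells. Another 187 WT UMIs in 50 cells, and 8 Card14KI UMIs in 3 cells, lay in cells that passed no gate.

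Cxcr4, the receptor of CXCL12, was lower in Card14KI lymphocytes, with 83 UMIs (182 CPM, 145 to 226) in 43 Card14KI cells and 269 UMIs (295 CPM, 261 to 333) in 107 WT cells, a ratio of 0.618 (0.477 to 0.793). The thinned shares of 21.1% and 29.6% differed by -8.53 points (-17.4 to 1.43). It was lower in macrophages too, at 131 CPM in Card14KI and 378 CPM in WT, a ratio of 0.347 (0.235 to 0.500). The thinned shares of macrophages, 26.2% and 35.3%, differed by -9.10 points (-24.3 to 8.45), an interval that took in 0. Of the gated macrophages 18 in Card14KI and 62 in WT lay in a cluster with dendritic cells and monocytes led by Lyz2, H2-Aa and Il1b, and the part of this mix was not tested. B or plasma cells had it at 101 CPM in 39 Card14KI cells and 165 CPM in 77 WT cells, a class with an uneven mix that is given below. Neutrophils had it at 426 CPM in 32 Card14KI cells and 688 CPM in 44 WT cells, and there the interval of the ratio (0.377 to 0.997) reached almost to 1. Dendritic cells and monocytes were the exception, at 450.5 CPM in Card14KI and 452 CPM in WT, a ratio of 0.998 (0.773 to 1.28).

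Cxcr3, the receptor of CXCL9 and CXCL10, had 15 UMIs in 13 Card14KI lymphocytes (33.0 CPM, 18.4 to 54.4) and 27 UMIs in 22 WT lymphocytes (29.6 CPM, 19.5 to 43.1), and the ratio of 1.11 (0.550 to 2.17) means that a difference of that width was not detectable at this depth. Cxcr5, the receptor of CXCL13, had 3 UMIs in 3 of 39 Card14KI B or plasma cells and 14 UMIs in 12 of 77 WT cells, a ratio of 0.454 (0.0836 to 1.63). Beyond that class it had 2 UMIs in Card14KI and 5 in WT. The cluster led by Cd79a and Ms4a1 held 18 Card14KI and 49 WT cells, and the cluster led by Igkc, Ighm and Jchain 21 and 31. Median depth of the B or plasma class was 7753 UMIs in Card14KI and 3466 UMIs in WT. The part of this mix and depth in the Cxcr5 and Cxcr4 values of that class was not tested. Of the 4 genes measured in T cells and innate lymphoid cells 2 passed 1.5-fold (27.1% of all genes, 8.55% higher and 18.5% lower), Cxcr4 and Cxcl10, and 104 of the 135 WT Cxcl10 UMIs came from 1 cell. Without the richest cell of each library the Cxcl10 log2 ratio was -0.18 in place of -1.15, and with a stricter gate it was 1.11. In neutrophils 1 of 1 passed (34.9%, with 10.8% higher and 24.1% lower) and in B or plasma cells 3 of 3 (36.0%, with 10.4% higher and 25.6% lower).

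Lymphocyte subsets were small. In type 17-like cells (at least 2 markers of a set that includes Il17a, Il17f and Il23r) Cxcr6 was at 910.2 CPM (641 to 1255) in 9 Card14KI cells and 1309.7 CPM (984 to 1709) in 12 WT cells, found in 7 of the 9 and 12 of the 12. Their Cxcr4 was at 98.4 CPM (4 UMIs) in Card14KI and 679 CPM (28 UMIs) in WT. Regulatory T-like cells had Cxcr6 at 492 CPM in 17 Card14KI cells and 486 CPM in 54 WT cells, and Cxcr4 at 317 and 366 CPM. Dendritic epidermal T-like cells, the gamma-delta T cells of mouse epidermis, had Cxcr6 at 223 CPM in 20 Card14KI cells and 261 CPM in 58 WT cells but Cxcr4 as 0 UMIs in Card14KI and 1 UMI in WT. Cytotoxic-like cells had Cxcr6 at 418 CPM in 16 Card14KI cells and 314 CPM in 23 WT cells, and Cxcr3 as 3 and 11 UMIs. Type 2-like cells numbered 3 in Card14KI and 26 in WT and were not compared.

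**Figure D5:**
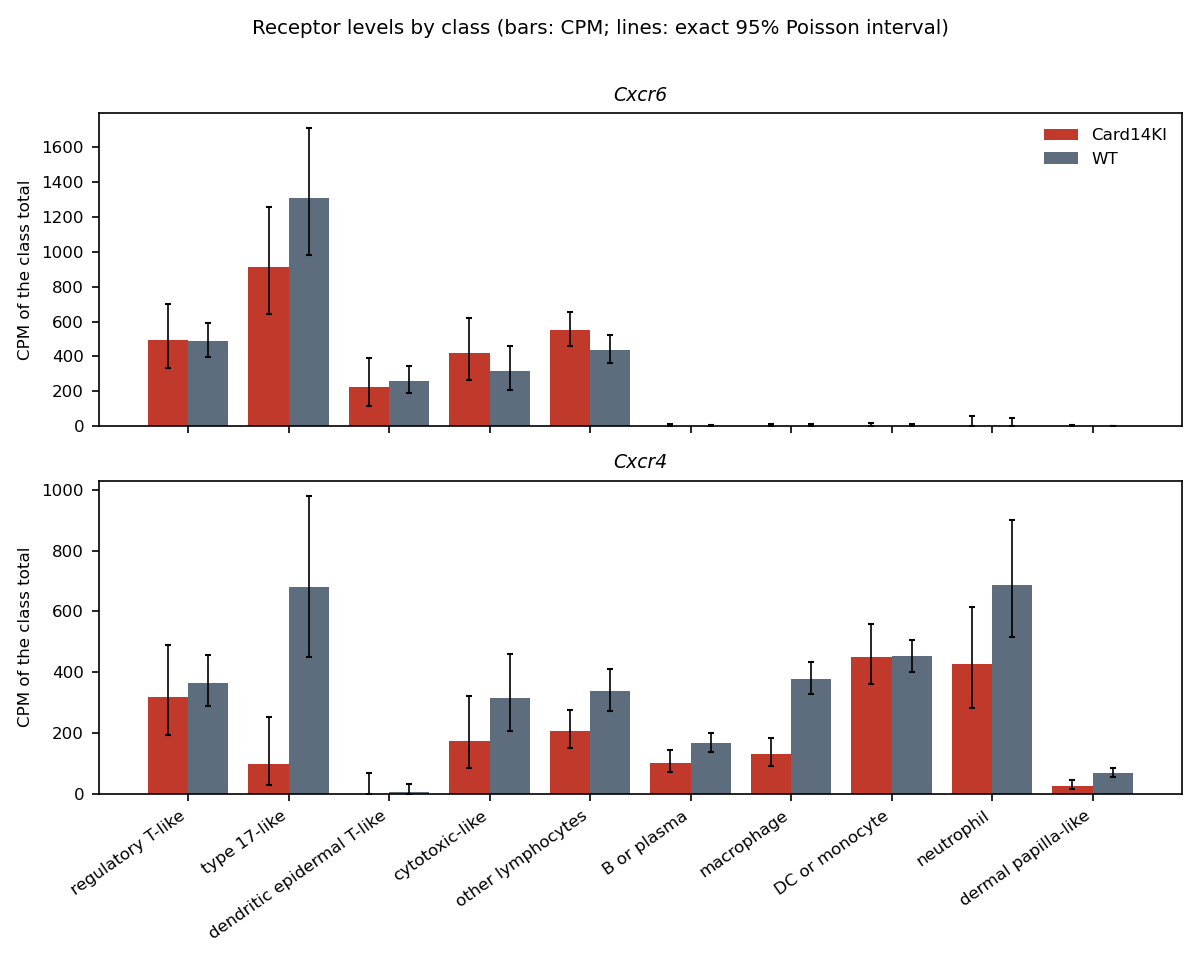
Level (CPM of the class total) of Cxcr6 and Cxcr4 in lymphocyte subsets, other leukocytes and dermal papilla-like cells of the Card14KI (left bar, red) and WT library (right bar, grey), with exact 95% Poisson intervals as lines. Cxcr6 stands highest in type 17-like cells of either library, with intervals that overlap, and Cxcr4 in macrophages is at 131 CPM in Card14KI and 378 CPM in WT.

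Genes of the same pathways were read from lists. Of the 21 genes of the interferon gamma axis, which induces Cxcl9 and Cxcl10, 19 reached 20 UMIs in fibroblasts, 10 were 1.5-fold higher in Card14KI and 0 lower. Their median log2 ratio was 0.46, against -0.09 for all genes tested, of which 7.17% were higher and 17.2% lower. Iigp1 and Irgm1, immunity-related GTPases, had ratios of 2.64 and 2.49, Gbp2, a guanylate-binding protein, 1.67, and Irf1, a transcription factor of the response, 1.52. In endothelial cells the list went the other way, with 0 of 19 higher and 8 lower in Card14KI and a median of -0.45. All genes there had a median of -0.14, with 7.32% higher and 19.8% lower. That class held 39 blood and 34 lymphatic cells in Card14KI against 19 and 72 in WT. The part of this mix was not tested. Mononuclear phagocytes (macrophages, dendritic cells, monocytes and Langerhans cells together) had 4 of 18 higher and 0 lower, where 10.3% of all genes were higher and 17.7% lower (28.0% in all). Taken apart, macrophages had 4 of 18 higher and 3 lower, where 13.0% of all genes were higher and 18.7% lower. Dendritic cells and monocytes had 0 of 12 higher and 2 lower (10.2% and 24.1% of all genes). T cells and innate lymphoid cells had 2 of 16 higher and 3 lower (8.55% and 18.5% of all genes). Basal and suprabasal keratinocytes together had 4 of 15 higher and 0 lower, where 6.0% of all genes were higher and 18.2% lower (24.2% in all). Ifng itself, chosen here after its values were seen, had 76 UMIs (167 CPM) in Card14KI lymphocytes and 78 UMIs (85.6 CPM) in WT lymphocytes, a ratio of 1.95 (1.40 to 2.71).

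Of 9 scavenger, processing and partner genes 4 were higher in Card14KI fibroblasts and 0 lower, where 7.17% of all genes were higher and 17.2% lower. Ackr3, the decoy receptor of CXCL12, was at 624 CPM in Card14KI and 341 CPM in WT. Ackr1 and Ackr2, scavengers of other chemokines, had ratios of 1.92 and 2.17. Dpp4, a peptidase that clips CXCL10 and CXCL12, had a ratio of 2.45 and is also a marker of the Pi16 gate, whose cells took a larger share of the Card14KI fibroblasts. Within the Pi16 subset 0 of 8 measured genes of this list were higher and 1, Adam10, was lower (6.2% and 11.9% of all genes). The list had 4 of 7 genes higher in complement-rich cells (26.8% of all genes passed either way) and 3 of 8 in collagen-rich cells (29.4%). It had 3 of 7 higher and 1 lower in Myoc cells (21.7%) and in contractile cells (47.7%). In dermal papilla-like cells 2 of 6 were higher and 2 lower (32.1%). In each of these 5 subsets Dpp4 was 1.5-fold or more higher in Card14KI. Adam10 and Adam17, which shed CXCL16, were at 49.9 and 62.9 CPM in Card14KI fibroblasts against 70.9 and 66.6 CPM in WT, inside 1.5-fold.

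Of the other CXC family genes, Cxcl1 and Cxcl2, ligands of neutrophil receptors, were higher in Card14KI fibroblasts with ratios of 2.76 and 2.72. By subset, both were higher in complement-rich cells, inside 1.5-fold in Pi16 and Myoc cells and lower in dermal papilla-like cells. Cxcl2 was lower in collagen-rich and contractile cells, where Cxcl1 was higher and inside 1.5-fold, respectively. Cxcl5 was at 0 UMIs in Card14KI fibroblasts against 245 UMIs in WT. In the lymphoid tissue list that goes with Cxcl13, 0 of 6 measured genes were higher in Card14KI fibroblasts and 2 lower. Among all genes there, 7.17% were higher and 17.2% lower. Ltbr, the lymphotoxin receptor that induces Cxcl13 in lymphoid stroma, was at 22.3 CPM in Card14KI and 38.4 CPM in WT. Tnfsf11, which encodes the RANK ligand, was at 0 UMIs in Card14KI against 40 UMIs in WT. Ccl19, a T cell chemokine of the same stroma, was at 39.6 and 56.6 CPM, inside 1.5-fold.

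The genes with a profile most like each member were taken by Pearson's r of log2(CPM + 10) over 24 values, one for each class with 20 or more cells in a library. These are descriptions, since the values share libraries and depth. Cxcl12 was nearest to Serpinh1 (0.93), a collagen chaperone, to the matrix gene Fbln2 (0.92) and to Fstl1 (0.91), and Cxcl13 to Vcam1 (0.89), Gm4117 (0.86) and Chst7 (0.83). Cxcl14 was nearest to Arhgef19 (0.90), Inhbb (0.89) and Cspg4 (0.88). Cxcl10 stood by Rhoq (0.88), Cxcl9 by Lgr5 (0.84) and Cxcl16 by Pak1 (0.86). Cxcr6 lay by Cd40lg, Gzmb and Trdv4, lymphocyte genes, and Cxcr4 by the leukocyte genes Gpr132, Selplg and Coro1a (0.95 each). Cxcr3 and Cxcr5, with 68 and 24 UMIs, were too sparse for this.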

How the data were processed

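The authors deposited whole-number UMI counts per gene and barcode, with no normalization, from 10x 3′ libraries (version 3.1, per the labels' protocols). They were made with Cell Ranger 6.0.2 and mm10, per the submitters' processing notes, while the file headers name version 5.0.0. The tables held 3348 Card14KI and 5016 WT barcodes with 41460580 and 54816411 UMIs.

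Barcodes with 500 or more genes and under 20% mitochondrial UMIs were kept, which removed 435 Card14KI and 681 WT barcodes. Scrublet's own threshold marked 4 Card14KI and 2 WT cells and was judged not to have worked, so the highest scores were removed at 0.8% per 1000 barcodes (78 Card14KI and 174 WT cells).

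A class needed 2 or more markers, a mean scaled marker score of 0.15 and a lead of 0.05. The markers Krt85 and Trgv5 were not matched. Some genes of the marker sets and lists are not reported here by name. The cell types are rebuilt names, not the study's. The deposited counts were summed per class and library and divided by the class total. A gene with 20 or more UMIs over both libraries was called past a 1.5-fold ratio of CPM, and log2 ratios use CPM + 10. Levels have exact Poisson intervals, ratios exact conditional binomial intervals, shares Clopper-Pearson intervals and differences of shares Newcombe intervals, all at 95% and for counting error only. With 1 library per group no p-value was computed. The summing and calling were checked on simulated counts.

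Beside the 10 genes, list genes past 1.5-fold were named at up to 6 a list and class, with the 3 genes nearest in profile to each member with 100 or more UMIs. A few list genes inside 1.5-fold were named after their values were seen. The members, lists and markers were chosen with earlier results of these data known. Alternatives changed the cell filter, doublets, gate, clusters, pseudocount, scaling, weighting and thresholds. Clusters used 2000 variable genes without the CXC and list genes, 30 components, 20 neighbours and resolution 1. Python 3.11.15, numpy 2.4.6, scipy 1.17.1, pandas 2.3.3 and scanpy 1.11.5 were used.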

Additional observations from a re-analysis of the deposited data

Results flagged for a closer look

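For 5 ligands the log2 ratio of Card14KI over WT, on the CPM + 10 scale, had opposite signs in different classes of the same libraries. With 1 mouse per genotype the difference between classes was not tested. Cxcl13 was at 2.88 in B or plasma cells, on 2 Card14KI cells, and at 1.82 in fibroblasts, against -5.04 in macrophages. Cxcl10 was at 1.49 in fibroblasts and 0.97 in macrophages, against -1.15 in T cells and innate lymphoid cells, -2.45 in dendritic cells and monocytes and -1.26 in basal keratinocytes. Its value in T cells and innate lymphoid cells changed sign with a stricter gate. Cxcl9 was at 0.43 in fibroblasts and -0.98 in basal keratinocytes, where 1 cell held 35 of the 41 Card14KI UMIs. Cxcl12 was at 1.15 in macrophages, on 17 Card14KI and 12 WT UMIs, and smaller there with suspected doublets kept. It was at -1.01 in fibroblasts, -1.60 in basal and -0.63 in suprabasal keratinocytes and -1.31 in endothelial cells. The suprabasal Cxcl12 levels lay below those of the removed barcodes (6.72 CPM in Card14KI, 132 CPM in WT) and are not read as expression. Most WT Cxcl12 UMIs in endothelial cells came from a few blood endothelial cells. Cxcl16 was at 0.64 in basal keratinocytes, against -1.26 in dendritic cells and monocytes and -1.997 in macrophages.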

How the results depend on the processing

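Of 670 values recomputed under the alternatives, 553 stayed within the counting interval (or, for counts of genes, within 1.5 times), 113 moved beyond it without a reversal and 4 reversed, and 566 of 582 log2 ratios kept their sign. For fibroblasts the log2 ratios were 1.49 (Cxcl10), 1.82 (Cxcl13), -1.01 (Cxcl12) and -1.40 (Cxcl14). With classes from clusters Cxcl10 was at 1.41, Cxcl13 at 1.75 and Cxcl12 at -1.09. As a mean over cells they were at 1.19, 1.597 and -0.80. At equal subset weights, an alternative chosen after seeing the data, Cxcl10 was at 1.04, Cxcl13 at 1.17, Cxcl12 at -0.70 and Cxcl14 at -1.68. Suprabasal Cxcl16 was at 0.30, at 0.13 with classes from clusters and at 0.0015 as a mean over cells. The reversals were Cxcl10 in T cells and innate lymphoid cells (1.11 with a stricter gate), Cxcl13 in basal keratinocytes (-0.076 as a mean over cells), and, without the richest cell of each library, Cxcl9 in collagen-rich fibroblasts (-0.15) and Cxcl12 in mononuclear phagocytes (-0.12). The cause of these changes was not tested. Members past 1.5-fold in T cells and innate lymphoid cells were 2, against 1 at 2-fold and 6 with 1 or more UMI required. In mononuclear phagocytes they were 5, against 2 at 2-fold and 8 with 1 or more UMI.

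No paired analysis was possible because each genotype has 1 mouse. Macrophages, B or plasma cells, dermal papilla-like cells and lymphocyte subsets rest on few cells, and Cxcl9, Cxcr3 and Cxcr5 on few UMIs. The collagen-rich gate uses genes that were themselves lower in Card14KI fibroblasts, and the basal gate held different shares of follicle-led clusters in the libraries.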
